A study of Mus musculus with 50 samples.

Results

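CXC chemokines are small secreted proteins that carry a single residue between their first pair of cysteines and that steer leukocytes along a gradient by binding G protein-coupled receptors. Cxcl1, Cxcl2 and Cxcl3 bear the ELR motif, bind Cxcr2 and draw neutrophils, whereas Cxcl9, Cxcl10 and Cxcl11 are induced by interferons, bind Cxcr3 and draw activated T cells and NK cells. Cxcl13 guides B cells through Cxcr5, Cxcl14 is a conserved chemokine of epithelia and neurons whose receptor is debated, and Cxcl16 is made as a membrane-bound ligand of Cxcr6 that the proteases Adam10 and Adam17 shed. Microglia, the resident macrophages of the brain, are a known source of several of them after an inflammatory stimulus.

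These 9 genes were looked up by their symbols in the gene counts of hippocampal microglia, and all 9 were found among 53700 genes. The microglia were sorted as CD45int CD11b+ cells from male C57BL/6J mice, and each of the 50 mRNA sequencing libraries came from 1 mouse. Control (CTR) litters had standard bedding, and early-life stress (ELS) litters had limited bedding and nesting material between P2 and P9, P standing for postnatal day. The groups at P9, which received no injection, were P9-CTR (n = 12) and P9-ELS (n = 13). Adults of P200 received PBS or 1 mg/kg of lipopolysaccharide (LPS), a bacterial cell wall component, 3 h before collection, which gave CTR-PBS (n = 7), ELS-PBS (n = 6), CTR-LPS (n = 7) and ELS-LPS (n = 5). Adult tissue passed a Percoll gradient that P9 tissue did not. A mouse is named here by its label, such as P200_5.3_CTR_LPS, in which the number before the point was taken as the nest.

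The total count per mouse lay between 5152838 and 42231258. The microglial markers P2ry12 and Tmem119 were detected in every mouse, P2ry12 at 4317 to 20350 CPM (TMM-normalised counts scaled to a common library size) and Tmem119 at 179.8 to 12050 CPM. A list of 6 T and NK cell markers summed to at most 1.28 CPM in any mouse. Markers of border-associated macrophages, a list of 8 genes, summed to 475 to 921 CPM at P9, most of it Mrc1 (mean 710.7 CPM in P9-CTR and 710.6 in P9-ELS), and to 2.26 to 12.1 CPM at P200, and 6 neuronal markers summed to 39.2 to 186 CPM at P9 and to 2.49 to 15.14 CPM at P200. Libraries with few detected genes were mouse P200_1.1_CTR_PBS (12854 genes) and mice P9_19.3_ELS (12482) and P9_19.2_ELS (15731), against 16485 to 21100 in the other mice.

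A total of 7 members lie on chromosome 5 of the mouse genome (GRCm39). Cxcl3 (chr5:90933962-90937459), Cxcl1 (chr5:91039094-91040974) and Cxcl2 (chr5:91051730-91053797) form a run on the plus strand, and Cxcl9 (chr5:92469206-92475945), Cxcl10 (chr5:92494497-92496748) and Cxcl11 (chr5:92507403-92513344) form another on the minus strand. Cxcl13 (chr5:96104810-96108927) lies apart from both, and Cxcl16 (chr11:70344517-70352620) and Cxcl14 (chr13:56436352-56444603) lie on other chromosomes. The annotation places exons of Art3 opposite 133 exon bases of Cxcl10, exons of Gm2673 opposite 1582 exon bases of Cxcl11, and exons of Med11 and Zmynd15 opposite 2213 and 2132 exon bases of Cxcl16. The strand setting of the counting is not given in the sources used here, so reads of these genes and their partners cannot be told apart there.

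The promoter stretches of the ELR genes and of Cxcl10 are shown because the ELR genes, which share κB letters, differed in level after LPS and Cxcl10 had the highest level of all members. They are from RefSeq in the older build GRCm38.p6, whose table holds 7 of the 9 members, and end at the base before the annotated start. Capitals mark matches to the κB consensus in Cxcl1, Cxcl2 and Cxcl3, and in Cxcl10 a match to the interferon-stimulated response element (ISRE, GAAANNGAAA), a pair of κB matches and an AP-1 match (TGACTCA, read on the other strand), in this order.
Cxcl1, chr5:90891135-90891244, plus strand: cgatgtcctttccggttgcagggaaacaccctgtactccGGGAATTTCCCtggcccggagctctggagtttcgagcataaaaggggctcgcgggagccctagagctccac
Cxcl2, chr5:90903789-90903898, plus strand: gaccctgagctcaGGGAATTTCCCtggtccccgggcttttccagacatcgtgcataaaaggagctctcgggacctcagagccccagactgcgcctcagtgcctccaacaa
Cxcl3, chr5:90785991-90786100, plus strand: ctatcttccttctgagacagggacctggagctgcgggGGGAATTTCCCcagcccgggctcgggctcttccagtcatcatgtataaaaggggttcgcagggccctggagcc
Cxcl10, chr5:92348890-92349139, minus strand: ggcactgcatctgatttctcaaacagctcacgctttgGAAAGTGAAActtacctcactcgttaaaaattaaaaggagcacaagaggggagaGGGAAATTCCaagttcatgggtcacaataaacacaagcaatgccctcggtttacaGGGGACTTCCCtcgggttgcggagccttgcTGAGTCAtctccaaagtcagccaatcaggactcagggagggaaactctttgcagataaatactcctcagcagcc

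The same κB letters, in which overlapping matches are merged, stood in Cxcl1, Cxcl2 and Cxcl3 and began at -71, -97 and -73 from the start. In the 250 bases before the start, both strands read, 7.25% of 32851 promoters held a κB match, 2.98% an ISRE match and 4.46% an AP-1 match. Cxcl14 held an ISRE match at -172, and Cxcl9 and Cxcl13 held none of the 3 motifs in this window. These matches are letters in a sequence and were not measured as bound.

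Without a stimulus the adult microglia expressed 1 member at a clear level. Cxcl16 made up 98.3% ± 1.89 (SD, n = 7 mice) of the summed CPM of the 9 genes in CTR-PBS and 99.1% ± 1.05 (n = 6) in ELS-PBS. After LPS the sum went in CTR from 127 ± 10.3 to 742 ± 321 CPM (n = 7) and in ELS from 116 ± 23.2 CPM to 888 ± 467 CPM (n = 5), and Cxcl10 then gave 58.7% ± 6.16 and 60.3% ± 4.66 of it. Per length (RPKM, the CPM per kilobase of the canonical transcript), Cxcl10 went from 1.69 ± 2.16 to 407 ± 205 RPKM in CTR, where Cxcl16 went from 41.6 ± 3.23 to 94.99 ± 31.5 RPKM. The order of the members per length was therefore Cxcl16 above Cxcl10 in PBS-injected mice and Cxcl10 above Cxcl16 in LPS-injected mice. In CTR-LPS all other members were at 2.33 RPKM (Cxcl2) or less. Cxcl9, Cxcl1 and Cxcl11 followed at 1.04 ± 0.773, 0.772 ± 0.871 and 0.715 ± 0.422 RPKM and did not differ beyond their spread.

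**Figure D1:**
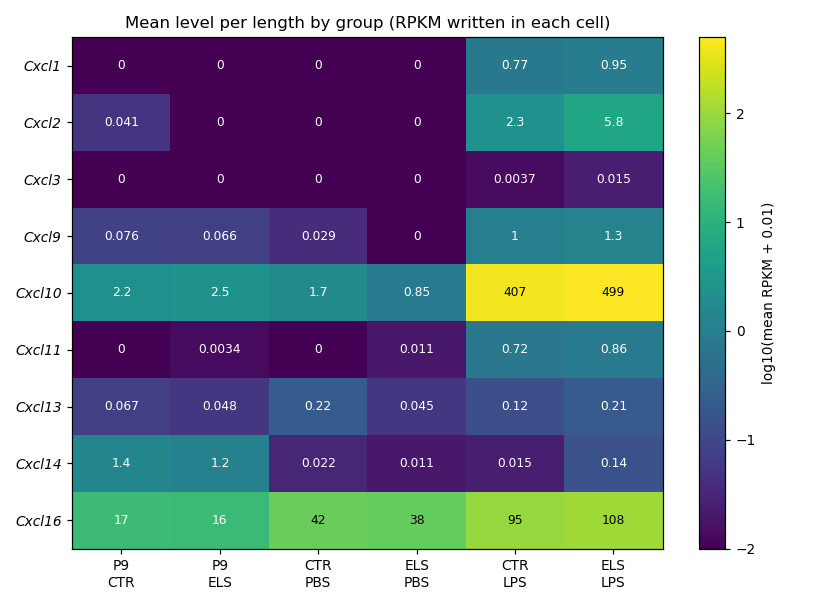
Mean RPKM (CPM per kilobase of the canonical transcript) of the 9 CXC chemokine genes, in rows, in the 6 groups, in columns, with the colour on a log10 scale after adding 0.01 and the mean written in each cell. Cxcl16 was at 15.8 RPKM or more in every group, and Cxcl10 was at 407 and 499 RPKM in the groups injected with LPS and at 2.46 or less elsewhere.

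Differences were tested in edgeR (quasi-likelihood test) with a single model that holds a mean for each of the 6 groups, and Benjamini-Hochberg adjustment covered the 16696 genes that reached 1 CPM in more than 2 mice. A gene was called when its adjusted p was below 0.05 and its log2 fold change (log2FC, given with its standard error, SE) was beyond 1 in either direction. This filter kept 7 members and left out Cxcl3 and Cxcl13. Cxcl1, Cxcl2 and Cxcl11 passed it through LPS-injected mice alone (3, 10 and 10 mice at 1 CPM), and Cxcl9 through 8 of them and 2 P9 mice, so that those genes had to differ between LPS and other mice and their calls are given as a description. In bulk libraries, fewer cells of a type and less RNA per cell cannot be told apart.

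LPS against PBS asked which chemokine genes adult microglia raise within hours of a systemic stimulus. In CTR, 6 of the 7 members tested were called higher, where 6.02% of all genes tested were, and 3 members were higher in every LPS mouse than in any PBS mouse, where 4.92% of genes were. In ELS, 7 of 7 were called higher against 4.69% of all genes, and 5 did not overlap against 5.65%. No member was called lower in either. Nothing is read from these shares, since passing the filter fixed the direction of Cxcl1, Cxcl2, Cxcl9 and Cxcl11. Of the 3 members that passed it otherwise, Cxcl10 and Cxcl16 were called higher in both conditions and Cxcl14 in ELS alone, through 1 mouse.

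**Figure D2:**
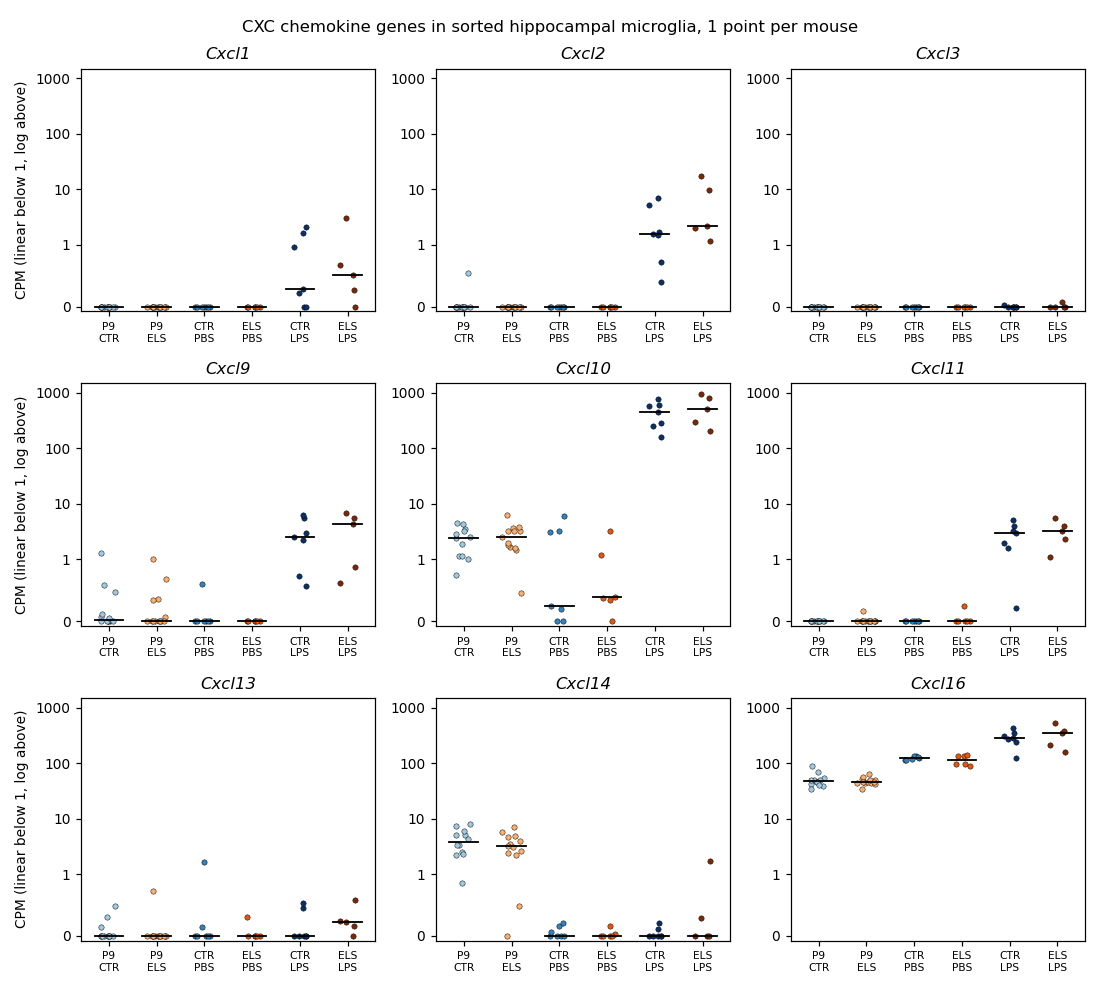
CPM of the 9 CXC chemokine genes in each of the 50 mice, by group, with the group median as a bar and an axis that is linear below 1 CPM and logarithmic above. Cxcl10 and Cxcl16 had counts in every LPS-injected mouse at 124 CPM or more, Cxcl1, Cxcl2, Cxcl9 and Cxcl11 stayed at 17.11 CPM or less, and Cxcl14 was highest at P9.

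Among the ELR chemokines, Cxcl2 was the one with counts in every LPS mouse. It had no count in any of the 13 PBS mice. Its level in CTR-LPS had a lowest value of 0.405, a median of 1.60 and a highest value of 7.03 CPM, and the 5 ELS-LPS mice were at 1.17, 1.98, 2.21, 9.66 and 17.11 CPM. All LPS mice were thus above all PBS mice. The mean after LPS was 17.18 times a floor of 3 counts per PBS library in CTR (adjusted p = 9.26e-05, edgeR). In ELS it was 49.8 times the floor (adjusted p = 6.72e-05). Such a ratio bounds the PBS side alone, takes the LPS mean as measured and is not what the adjusted p tests.

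Cxcl1, a close relative in the same chromosomal run, was lower and absent from more mice. It had no count in any mouse at P9 or after PBS. In CTR-LPS it ranged from 0 to 2.07 CPM with a median of 0.292, and 5 of 7 mice had a count, the highest being mouse P200_5.3_CTR_LPS. The ELS-LPS mice were at 0, 0.274, 0.516, 0.680 and 3.10 CPM, the highest being mouse P200_20.1_ELS_LPS. The groups overlapped at 0. The mean after LPS was 4.92 times the floor in CTR (adjusted p = 0.00844, edgeR) and 7.10 times the floor in ELS (adjusted p = 0.0125). The ELS call was not made by DESeq2 (adjusted p = 0.0692) or with the nest as a block (adjusted p = 0.0594).

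Cxcl3 was close to silent. It had 1 count in mouse P200_1.3_CTR_LPS, 1 count in mouse P200_2.2_ELS_LPS and none in the other mice, both values lying under the floor of 3 counts. An exact two-sided permutation test of its mean CPM gave p = 1.0 for LPS in CTR and p = 0.455 in ELS. The 3 ELR genes thus ranged from 1 count in a single CTR-LPS mouse (Cxcl3) to 9 to 196 counts in every CTR-LPS mouse (Cxcl2), and the same κB letters stood in each of the stretches printed above.

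Of the interferon-induced members, Cxcl10 showed the highest level after LPS of all 9 genes. In CTR-PBS it ranged from 0 to 6.07 CPM with a median of 0.239, and in ELS-PBS from 0 to 3.29 CPM with a median of 0.387. In CTR-LPS the lowest, median and highest values were 158, 453 and 784 CPM, and the ELS-LPS mice were at 207, 295, 504, 801 and 942 CPM. Every LPS mouse was above every PBS mouse. The log2FC was 7.89 (SE 0.73, adjusted p = 1.92e-12, edgeR) in CTR and 9.19 (SE 0.84, adjusted p = 2.1e-12) in ELS.

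The size of the Cxcl10 change depended on a few PBS mice that already had counts. Mice P200_5.2_CTR_PBS, P200_5.1_CTR_PBS and P200_8.1_CTR_PBS were at 6.07, 3.30 and 3.19 CPM and the other 4 at 0.239 CPM or less, and mouse P200_17.1_ELS_PBS was at 3.29 CPM with the other 5 at 1.19 or less. Without mouse P200_5.2_CTR_PBS the log2FC in CTR was 8.61, and without mouse P200_17.1_ELS_PBS that in ELS was 10.2. Without mouse P200_1.1_CTR_PBS, the library with few detected genes, it was 7.69 in CTR. The call held in each of these fits.

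Cxcl9 and Cxcl11, the neighbours of Cxcl10 on chromosome 5, stayed at 6.93 CPM or less in every mouse. Cxcl9 was at 0.572, 2.56 and 6.41 CPM in CTR-LPS (lowest, median, highest) and at 0.618, 0.877, 4.42, 5.65 and 6.93 CPM in ELS-LPS. In the PBS groups it had counts in mouse P200_18.1_CTR_PBS alone (13 counts, 0.595 CPM), which was above mouse P200_5.3_CTR_LPS. Its log2FC in CTR was 5.03 (SE 1.37, adjusted p = 0.00775, edgeR) and rested on mouse P200_18.1_CTR_PBS. Without it no PBS mouse had a count, the call stayed and the fitted value was 9.02, which is no bound. In ELS the mean was 28.7 times the floor (adjusted p = 0.000458).

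Cxcl11 had no count in CTR-PBS and 6 counts in mouse P200_17.1_ELS_PBS, the mouse with the most Cxcl10 in that group. It was at 0.214, 2.97 and 5.06 CPM in CTR-LPS (lowest, median, highest) and at 1.11, 2.34, 3.32, 3.95 and 5.63 CPM in ELS-LPS. Every LPS mouse was above every PBS mouse of its condition, although mouse P200_5.3_CTR_LPS rested on 3 counts. The mean in CTR was 18.0 times the floor (adjusted p = 3.66e-06, edgeR), and the log2FC in ELS was 6.13 (SE 1.17, adjusted p = 0.000278). Without mouse P200_17.1_ELS_PBS no PBS mouse had a count and the fitted value was 9.13, which is no bound. Gm2673, the gene opposite part of its exons, was at most 1.16 CPM in any LPS mouse.

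Cxcl16 was the member with the smallest called change. Its lowest, median and highest values in CTR-PBS were 113, 123 and 136 CPM, those in ELS-PBS 89.4, 114 and 139 CPM and those in CTR-LPS 124, 283 and 428 CPM. The ELS-LPS mice were at 159, 215, 344, 374 and 523 CPM. The groups did not overlap in ELS, and in CTR, mouse P200_5.3_CTR_LPS alone lay within the PBS range. The log2FC was 1.19 (SE 0.20, adjusted p = 7.36e-06, edgeR) in CTR and 1.49 (SE 0.22, adjusted p = 1.09e-06) in ELS. It stayed above 1 in each fit that left out 1 mouse, at 1.06 to 1.32 in CTR and 1.25 to 1.67 in ELS.

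The genes opposite Cxcl16 and Cxcl10 moved with them. Zmynd15 rose by a log2FC of 1.17 (SE 0.22, adjusted p = 5.56e-05, edgeR) in CTR and 1.48 (SE 0.24, adjusted p = 8.56e-06) in ELS, and Med11 by 1.13 (SE 0.23, adjusted p = 0.000232) in ELS, whereas its 0.91 in CTR stayed below the fold limit. In CTR, Art3 went from 0.610 ± 0.992 to 59.8 ± 31.6 CPM, and in ELS from 0.506 ± 0.421 to 68.1 ± 39.6 CPM, against 448 ± 226 and 550 ± 317 CPM for Cxcl10 in the LPS groups. How far reads of 1 gene of such a pair were counted for the other was not tested.

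The B cell chemokine Cxcl13 had counts in 13 of the 50 mice, of which 1 reached 1 CPM, namely mouse P200_5.1_CTR_PBS at 1.63 CPM. It had a count in 2 of 7 CTR-LPS and 4 of 5 ELS-LPS mice. An exact two-sided permutation test gave p = 0.878 for LPS in CTR, where the means were 0.141 and 0.252 CPM, and p = 0.0996 in ELS, where they were 0.243 and 0.0517 CPM.

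Cxcl14 was called for LPS in ELS through 1 mouse. The 5 ELS-LPS values were 0, 0, 0, 0.289 and 1.69 CPM, the highest being mouse P200_4.2_ELS_LPS with 29 counts, and the ELS-PBS mice ranged from 0 to 0.161 CPM. The log2FC was 3.36 (SE 1.102, adjusted p = 0.0343, edgeR), and without mouse P200_4.2_ELS_LPS it was 0.89 (adjusted p = 0.738). The call was also lost without PBS mouse P200_2.1_ELS_PBS, P200_4.1_ELS_PBS, P200_11.1_ELS_PBS, P200_17.2_ELS_PBS or P200_20.2_ELS_PBS (adjusted p = 0.059 to 0.076). In CTR the log2FC was -0.57 (SE 1.12, adjusted p = 0.818), with at most 4 counts in any mouse.

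**Figure D3:**
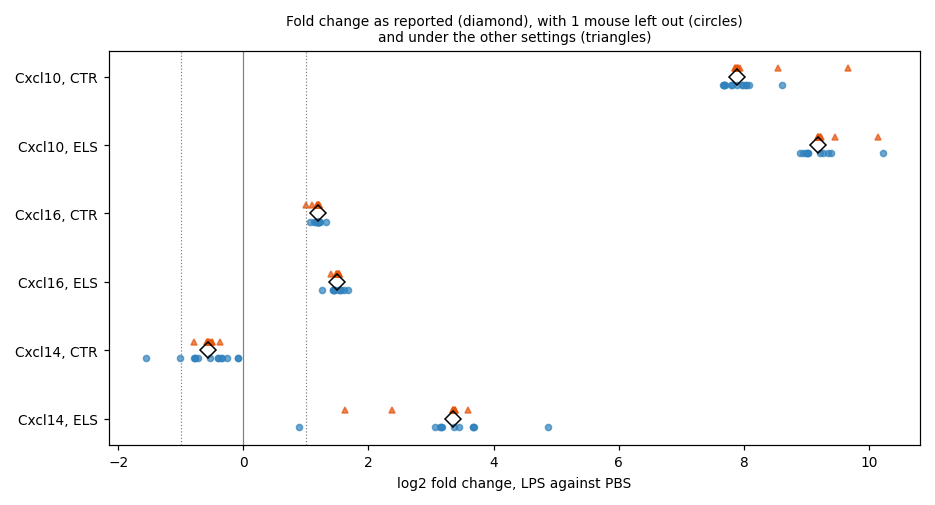
Log2 fold change of Cxcl10, Cxcl16 and Cxcl14 for LPS against PBS in CTR and in ELS. The diamond is the value given in the text, circles are fits that each left out 1 mouse, triangles are the other settings, and dotted lines mark the fold limit. Cxcl10 and Cxcl16 kept to the right of 1 in both conditions, and Cxcl14 in ELS ran from 0.89 to 4.87.

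Whether ELS altered these genes was asked at P9, after PBS, after LPS and as a difference of the LPS response. ELS was given to whole litters. By the label number taken here as the nest, the 13 P9-ELS mice came from 4 nests and each other group from 5. The main test took each mouse as a replicate, so its p-values do not allow for mice that share a nest. No member was called in any of the 4 comparisons by edgeR's quasi-likelihood test, its likelihood-ratio test or DESeq2. Of all genes tested, 0.0% were called at P9, 0.156% after PBS, 0.0% after LPS and 0.0% for the difference of the LPS response. An unadjusted p under 0.05 was found for 2, 2, 1 and 3 of the 7 members and for 914, 1622, 796 and 980 of all genes, in this order.

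After LPS the means in ELS were above those in CTR for each of the 7 members tested, and none of these differences was called. For Cxcl10 the log2FC of ELS against CTR was 0.29 (SE 0.58, adjusted p = 1.0, edgeR), for Cxcl16 0.19 (SE 0.21), for Cxcl9 0.29 (SE 1.22), for Cxcl11 0.27 (SE 0.91) and for Cxcl2 1.31 (SE 1.03). Mouse P200_20.1_ELS_LPS had the highest level of Cxcl1, Cxcl2, Cxcl9, Cxcl10, Cxcl11 and Cxcl16 of all 50 mice. Without it the values turned to -1.002 for Cxcl1, -0.06 for Cxcl9, -0.02 for Cxcl11 and -0.06 for Cxcl16, and those of Cxcl10 and Cxcl2 were 0.01 and 0.53. Cxcl14 had the smallest unadjusted p (0.00473, adjusted p = 0.828), and its log2FC of 3.18 was 0.71 without mouse P200_4.2_ELS_LPS.

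The response itself was also compared between conditions. The log2FC for LPS was greater in ELS than in CTR by 1.302 for Cxcl10 (SE 0.88, adjusted p = 0.926, edgeR) and by 0.30 for Cxcl16 (SE 0.29, adjusted p = 0.969). The difference for Cxcl10 was 0.57 without mouse P200_5.2_CTR_PBS and 2.35 without mouse P200_17.1_ELS_PBS, and was not called in either fit. For Cxcl9, Cxcl11 and Cxcl14 the unadjusted p was 0.0398, 0.0414 and 0.0184 and the adjusted p 0.806, 0.812 and 0.685. Each of the 3 rested on a single mouse with counts: mouse P200_18.1_CTR_PBS for Cxcl9 (difference 4.29, or 0.29 without it), mouse P200_17.1_ELS_PBS for Cxcl11 (-2.74, or 0.27 without it) and mouse P200_4.2_ELS_LPS for Cxcl14 (3.92, or 1.46 without it). For Cxcl1 and Cxcl2 no PBS mouse had a count, and no difference of responses is given.

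In PBS-injected adults Cxcl10 had a log2FC of -1.01 for ELS (SE 0.67, adjusted p = 0.704) and Cxcl16 of -0.12 (SE 0.20, adjusted p = 0.937). The value of Cxcl10 was -0.28 without mouse P200_5.2_CTR_PBS and -2.05 without mouse P200_17.1_ELS_PBS. Unadjusted p values under 0.05 after PBS were those of Cxcl9 (0.0278) and Cxcl11 (0.0178), which came from the 13 counts of mouse P200_18.1_CTR_PBS and the 6 counts of mouse P200_17.1_ELS_PBS. At P9 the values were 0.14 (SE 0.45) for Cxcl10, -0.33 (SE 0.57) for Cxcl14 and -0.09 (SE 0.15) for Cxcl16, each with an adjusted p of 1.0. The nominal values at P9 came from 10 counts of Cxcl2 in mouse P9_52.1_CTR and 4 counts of Cxcl11 in mouse P9_55.2_ELS.

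Between P9 and adulthood, Cxcl14 and Cxcl16 moved in opposite directions. The adult samples here were the PBS groups, so that age cannot be told apart from the injection and the Percoll step. In CTR, 1 of 7 members was called higher at P200 (7.98% of all genes) and 1 lower (18.5%), and in ELS 1 was called higher (8.68%) and 3 lower (17.5%).

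Cxcl14 was at 0.852, 3.84 and 8.06 CPM in P9-CTR (lowest, median, highest) and at 0, 3.27 and 7.16 CPM in P9-ELS. At P200 no PBS mouse was above 0.214 CPM. In P9-ELS, mouse P9_19.2_ELS had no count and mouse P9_55.3_ELS was at 0.484 CPM, and the groups overlapped at 0, whereas in CTR they did not overlap. The log2FC at P200 against P9 was -5.98 (SE 0.98, adjusted p = 1.77e-06, edgeR) in CTR and -6.40 (SE 1.09, adjusted p = 3.67e-06) in ELS. The marker sums of neurons and of border-associated macrophages given above fell between the same ages, and so did most astrocyte markers: in CTR, mean Gfap went from 40.96 to 1.28 CPM, Aqp4 from 12.63 to 0.394, Gja1 from 28.75 to 0.561 and Aldoc from 48.34 to 3.48, whereas Slc1a3 went from 120.0 to 355.9 CPM. The median astrocyte sum, which holds Slc1a3, went from 254.8 to 332.7 CPM in CTR. Median sums of oligodendrocyte and endothelial markers did not fall in CTR, from 140.7 to 152.7 CPM and from 36.06 to 52.51 CPM. In the endothelial list mean Pecam1 went from 28.1 to 47.63 CPM, whereas Cdh5 went from 4.325 to 0.465 CPM. The part of any of these cells in the fall of Cxcl14 was not tested.

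Cxcl16 was at 33.9, 46.9 and 87.2 CPM in P9-CTR and at 34.7, 46.1 and 64.1 CPM in P9-ELS (lowest, median, highest), and each adult PBS mouse was above each P9 mouse. Its log2FC was 1.31 (SE 0.17, adjusted p = 1.15e-08, edgeR) in CTR and 1.28 (SE 0.17, adjusted p = 3.16e-08) in ELS. Its order over the 6 groups by mean CPM was P9-ELS, P9-CTR, ELS-PBS, CTR-PBS, CTR-LPS and ELS-LPS, in which the ELS and CTR neighbours at each step did not differ beyond their spread.

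Cxcl10 and Cxcl9 were called lower at P200 in ELS. Cxcl10 had a count in all 25 mice at P9, with a median of 2.47 CPM in P9-CTR mice and of 2.54 CPM in P9-ELS mice, and its log2FC was -1.52 (SE 0.62, adjusted p = 0.041, edgeR) in ELS and -0.37 (SE 0.54, adjusted p = 0.612) in CTR. The ELS call was lost without any 1 of the mice P200_2.1_ELS_PBS, P200_4.1_ELS_PBS, P200_11.1_ELS_PBS, P200_17.2_ELS_PBS and P200_20.2_ELS_PBS, at adjusted p = 0.0531 to 0.102, and without the pair of P9 mice with few detected genes (adjusted p = 0.0755). Cxcl9 had counts in 5 of 13 P9-ELS mice, at most 1.02 CPM, and in no ELS-PBS mouse (adjusted p = 0.0135). In CTR it had counts in 6 of 12 P9 mice and was not called (adjusted p = 0.36), but was without mouse P200_18.1_CTR_PBS (adjusted p = 0.0112).

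The LPS-injected mice differed among themselves, and the same mice tended to be high or low for several members. This was looked at after the values were seen, for Cxcl2, Cxcl9, Cxcl10, Cxcl11 and Cxcl16 in the 12 LPS mice. Mouse P200_20.1_ELS_LPS ranked first of 12 for all 5 genes, and mouse P200_5.3_CTR_LPS ranked last for 4 of them and next to last for Cxcl2, whereas its Cxcl1 was the highest of the CTR-LPS mice. Their total counts were 16355445 and 13900212, among 13900212 to 42231258 in the 12 mice. For Cxcl10 and Cxcl16, log2 CPM had Pearson's r = 0.948 and Spearman's rho = 0.958 (permutation p = 1e-05, the smallest that 100000 resamples can give, and 2e-05, adjusted over 10 pairs 5e-05 and 0.0001). Without the 2 mice farthest from the median of Cxcl10, r was 0.911, and within the 7 CTR-LPS mice it was 0.921. The 5 ELS-LPS mice were too few for a value of their own. Over the 10 pairs r ran from 0.535 for Cxcl2 with Cxcl11 (adjusted permutation p = 0.0717) to 0.948, and all values were positive. The genes of a mouse share its library and normalisation. The permutations took the 12 mice as exchangeable, although they differ in condition and some share a number taken as the nest.

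**Figure D4:**
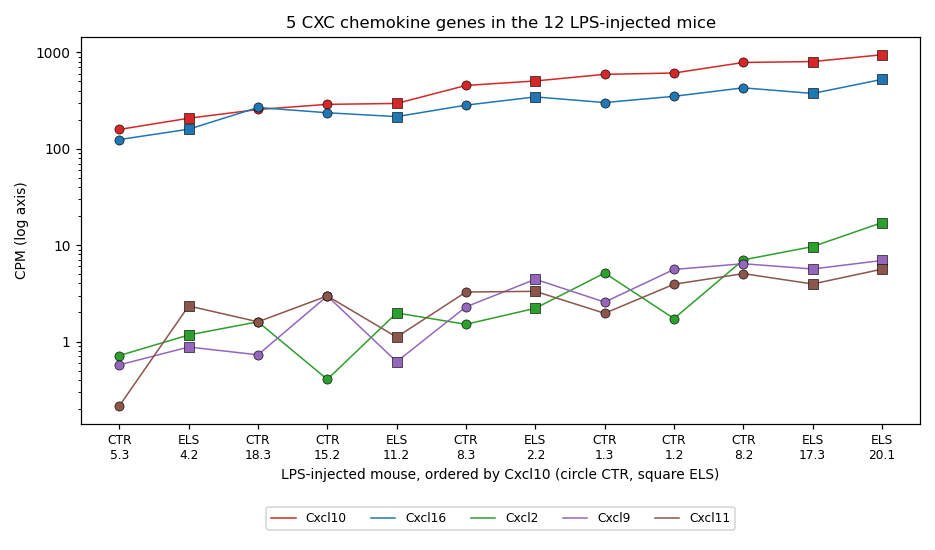
CPM on a log axis of 5 CXC chemokine genes in the 12 LPS-injected mice, ordered by Cxcl10 from left to right, with circles for CTR and squares for ELS and lines joining the values of a gene. Cxcl10 ran from 158 CPM in mouse P200_5.3_CTR_LPS to 942 CPM in mouse P200_20.1_ELS_LPS, and Cxcl16 from 124 to 523 CPM in the same mice.

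Genes with the most similar pattern were named by Pearson's r of log2 CPM among genes with a mean log2 CPM of at least 1, as a description. Over all 50 mice the nearest to Cxcl10 were Ccl12 (r = 0.947), Art3 (0.942) and Tubb6 (0.942), the nearest to Cxcl16 were Zmynd15 (0.988), Smim3 (0.963) and C5ar1 (0.959), and the nearest to Cxcl2 were Gpr84 (0.959), Gm49482 (0.958) and Pde4b (0.952). Gpr84 and Gm49482 also led for Cxcl11 (0.972 and 0.971), Rbpj (0.862) and Tlr2 (0.86) led for Cxcl9, and Pde4b (0.803) led for Cxcl1. Efemp2 (0.904), Nnat (0.902) and Gpx3 (0.9) were nearest to Cxcl14. Within the groups of the 25 adults, after the group means were subtracted, Cxcl10 was nearest to Art3 (0.824) and Cd40 (0.822), Cxcl16 to Zmynd15 (0.962), Cd83 (0.914) and Cd14 (0.912), Cxcl2 to Nfkbie (0.831) and Ccrl2 (0.815), and Cxcl11 to Sting1 (0.849). Art3 and Zmynd15 are the genes that share exon positions with these members.

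The receptors of these ligands were mostly low in the sorted cells. Of 8 receptor genes 5 were tested, and LPS raised 1 of them, Cxcr5, the receptor of Cxcl13, in each condition. Of all genes tested, 6.02% were called higher in CTR and 4.69% in ELS. Cxcr5 was at most 0.856 CPM in a CTR-PBS mouse and 1.44 CPM in an ELS-PBS mouse, and the ELS-LPS values ran from 2.29 to 12.3 CPM. In CTR-LPS it ran from 0 to 9.16 CPM with a median of 5.26, and mouse P200_5.3_CTR_LPS alone had no count. The log2FC was 4.59 (SE 1.05, adjusted p = 0.00118, edgeR) in CTR and 4.12 (SE 1.12, adjusted p = 0.0085) in ELS. Cxcr3, the receptor of Cxcl9, Cxcl10 and Cxcl11, had a count in every mouse, at 0.732 to 12.1 CPM, and was not called for LPS. Cxcr1 had no count in any mouse, and Cxcr4 was at most 0.354 CPM. At P200 against P9, 2 of the 5 were called lower in each condition, Cxcr2 and Ackr3 in CTR and Cxcr2 and Cxcr5 in ELS. Of all genes tested, 18.5% were called lower in CTR and 17.5% in ELS.

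Cxcr2, the receptor of the ELR chemokines, was seen at P9. It ran from 9.07 to 20.0 CPM in P9-CTR mice and from 10.1 to 30.8 CPM in P9-ELS mice, was at most 1.05 CPM in any adult mouse, and had a log2FC at P200 against P9 of -9.09 (SE 0.89, adjusted p = 4.17e-12, edgeR) in CTR and -6.60 (SE 0.77, adjusted p = 7.64e-10) in ELS. The other neutrophil markers of the list were near 0 at P9, S100a8 being at most 2.45 CPM and Ly6g at 0 in every P9 mouse. In the adults the summed neutrophil list was at most 1.84 CPM in CTR-LPS and ran from 0.147 to 9.16 CPM in ELS-LPS, the highest being mouse P200_17.3_ELS_LPS, and its part in the values of Cxcl1 and Cxcl2 was not tested.

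**Figure D5:**
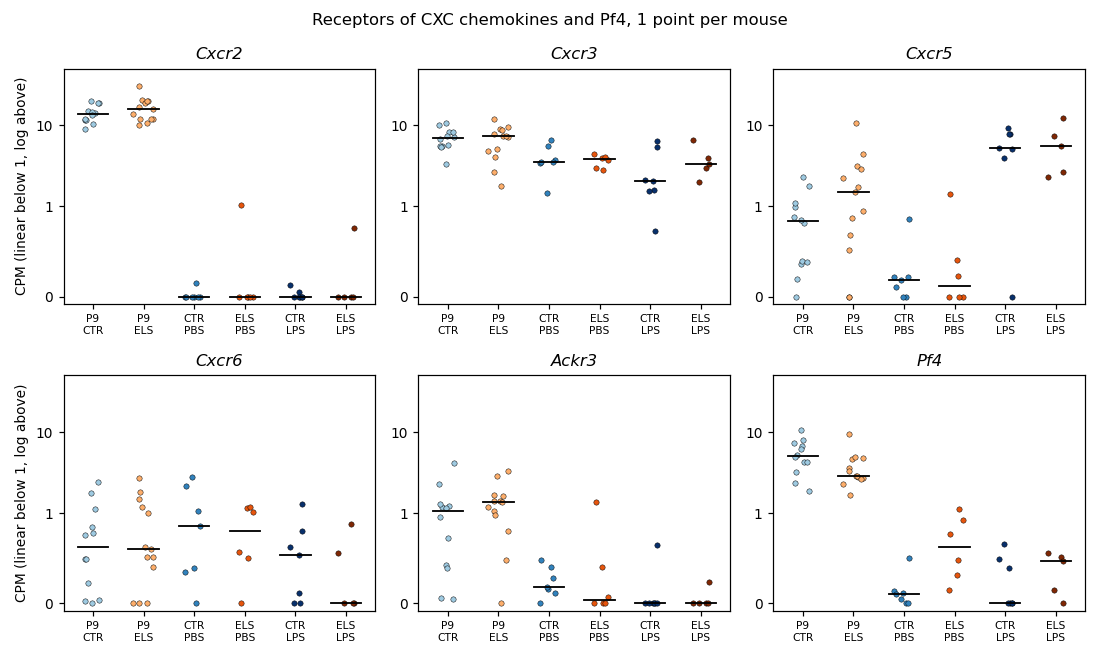
CPM of 5 receptors of CXC chemokines and of the platelet chemokine Pf4 in each of the 50 mice, by group, with the group median as a bar and an axis that is linear below 1 CPM and logarithmic above. Cxcr2 was at 9.07 CPM or more in each P9 mouse and at 1.05 CPM or less in each adult, and Cxcr5 was above 2 CPM in 11 of the 12 LPS-injected mice.

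Of 6 further CXC ligands 3 were tested, and none was called for LPS. Pf4, a chemokine of platelets that border-associated macrophages also express, was lower at P200 in both conditions, from 5.42 ± 2.499 CPM to 0.131 ± 0.175 CPM in CTR (log2FC -5.24, SE 0.73, adjusted p = 5.16e-08, edgeR) and from 3.74 ± 2.00 to 0.631 ± 0.377 CPM in ELS (log2FC -2.56, SE 0.65, adjusted p = 0.00115). Cxcl5 and Cxcl15 had no count in any mouse. Of 4 proteases that act on Cxcl16 or other chemokines 3 were tested, and none was called for LPS. Adam10 was at 726 ± 114 CPM in CTR-PBS and 652 ± 95.7 CPM in CTR-LPS, and Adam17 at 328 ± 39.9 and 337 ± 45.3 CPM.

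Regulators known to act on these genes were counted from a list of 22, of which 20 were tested. LPS raised 9 of them in CTR and 10 in ELS and lowered none, where 6.02% and 4.69% of all genes tested were called higher. Their median log2FC was 0.82 in CTR and 1.04 in ELS, against 0.0047 and -0.035 over all genes. The list was chosen with earlier results of these data known, so nothing is read from these shares and medians. The NF-κB inhibitor gene Nfkbia rose in CTR from 137 ± 30.1 to 1619 ± 350 CPM, its relative Nfkbiz from 9.79 ± 2.76 to 122 ± 55.9 CPM, and the cytokine genes Tnf and Il1b from 2.84 ± 1.62 to 259 ± 120 CPM and from 1.73 ± 1.66 to 405 ± 209 CPM. Irf1, a transcription factor of interferon responses, rose from 47.5 ± 12.3 to 270 ± 95.5 CPM, whereas Irf8 was at 587 ± 75.0 and 583 ± 154 CPM and was not called. Ifng, which encodes the inducer of Cxcl9, had no count in any mouse, and Ifnb1 was at most 1.88 CPM. No regulator was called for ELS at P9, after PBS or after LPS.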

How the data were processed

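Hippocampal microglia of 50 mice were sequenced, 1 library a mouse. The authors deposited whole-number counts per gene. The submitters' processing notes name bcl2fastq 2.20, cutadapt 2.10 and HTSeq 0.11.0 with GRCm39, and the methods name STAR; the annotation release and strand setting are not given in the sources used here.

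Groups came from the labels. Counts were TMM-normalised and tested in edgeR 4.0.16 (R 4.3.3) with the quasi-likelihood test, 1 model of 6 group means, over genes that reached 1 CPM in more than 2 mice, and p-values were adjusted by Benjamini-Hochberg. Log2 CPM used a prior count of 2. Members below the filter had permutation tests over mice, exact except where both groups had 10 or more mice (100000 resamples). Fold bounds used a floor of 3 counts per library, which covers counting error only. RPKM used canonical transcript lengths of GENCODE annotation on GRCm39. The named genes were the 9 members, fixed lists of other ligands, receptors, proteases and regulators, and the 3 genes nearest to each member. The fit was tested on simulated data. Alternatives were DESeq2 1.42.0, limma 3.58.1, other filters, nest as a block and leaving out mice. The members and lists were chosen with earlier results of these data known.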

Additional observations from a re-analysis of the deposited data

Results flagged for a closer look

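A mouse far from the others of its group was found in 6 of 22 tests of a member in a group (Dixon's test). The rate of 1 in 20 by chance holds for normally distributed values and not for groups that are mostly at 0. Cxcl9 was at 0 in 6 of 7 CTR-PBS mice and Cxcl11 in 5 of 6 ELS-PBS mice, where a lone mouse with counts is always flagged. No excess over chance is therefore read from the 6. Mouse P200_17.1_ELS_PBS was the highest of its group for Cxcl10 (3.294 CPM), Cxcl11 (0.241 CPM) and Cxcl14 (0.1607 CPM), of which the last rests on 4 counts. Mouse P200_18.1_CTR_PBS was the 1 mouse of its group with Cxcl9 (0.5948 CPM). In ELS-LPS, mouse P200_20.1_ELS_LPS was the highest for Cxcl1 (3.104 CPM) and mouse P200_4.2_ELS_LPS for Cxcl14 (1.695 CPM).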

How the results depend on the processing

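No setting changed the direction or the call of Cxcl2, Cxcl9, Cxcl10, Cxcl11 or Cxcl16 for LPS wherever the gene was tested. For Cxcl2, Cxcl9 and Cxcl11 nothing is read from this, since passing the filter had fixed their direction. A filter that allowed a 0 in no more than 2 mice tested 1 member, Cxcl16, and called 1 for LPS in CTR, LPS in ELS, age in CTR and age in ELS. With mice of 1 nest as a replicate block, 5 members were called for LPS in ELS, and limma voom with the nest as a random effect called 2 for age in ELS. Log2 CPM was also correlated between mice of the same age and condition, after each group's mean was subtracted. Same-nest mice then correlated at 0.0097 on average (44 pairs) and mice of other nests at -0.092 (246 pairs). Subtracting the mean itself lowers such values within a group, and what the nest number marks is not given. Leaving out 1 adult mouse gave 6 members for LPS in CTR and 6 to 7 for LPS in ELS. It gave 0 for each ELS comparison of adults and for the difference of the responses. For age it gave 2 to 3 in CTR and 3 to 4 in ELS, and no P9 mouse was left out singly. The difference of responses of Cxcl11 turned to 0.17 with limma voom and ran from -3.03 to 0.27 with 1 mouse left out. ELS against CTR after LPS ran from -1.002 to 0.80 for Cxcl1, -0.062 to 0.59 for Cxcl9, -0.019 to 0.49 for Cxcl11 and -0.057 to 0.36 for Cxcl16. Age in ELS ran from -1.78 to 1.49 for Cxcl11. Cxcl10 at P9 turned to -0.045 without the 2 P9 mice with the fewest genes. Fits of the adults alone were added after the data were seen. The cause of these changes was not tested. Counts under 3 in a library limit Cxcl1, Cxcl3, Cxcl13 and adult Cxcl14.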
